A study of Mus musculus with 29 samples.

Results

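The genes described here act on the amino acid arginine and on the polyamines made from it. The list holds 10 genes: Arg1, Arg2, Nos2, Ass1, Slc7a1, Slc7a2, Odc1, Srm, Sms and Azin1. Members were the probe sets annotated to exactly 1 of these genes, which gave 14 of the 22690 probe sets and covered 8 of the 10 genes. Ass1, which encodes argininosuccinate synthase, and Sms, which encodes spermine synthase, are held only by probe sets annotated to 2 genes and were given no value. The rule names genes and uses no measured value, but the genes were chosen with earlier results of these data known.

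RNA came from macrophages differentiated from bone marrow of C57BL/6 mice, aged 8 weeks, during 7 days of culture with the growth factor CSF-1 at 10 ng/ml in Teflon bags. The cells then received CSF-1 alone (unstimulated, 8 arrays) or CSF-1 with IL-4 (5 arrays), IL-6 (5), IL-10 (3), IL-4 and IL-6 (5), or IL-4 and IL-10 (3) for 24 h, each cytokine at 10 ng/ml. Every group, the unstimulated one included, was therefore exposed to CSF-1. The labels do not say whether the arrays of a group came from separate mice or cultures, so p-values measure the spread between these arrays, which may be technical.

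Macrophages take up arginine through cationic amino acid transporters. Arginase splits arginine into ornithine and urea, whereas the inducible nitric oxide synthase converts it to nitric oxide and citrulline, so the enzymes draw on the same substrate. Ornithine decarboxylase turns ornithine into putrescine, from which spermidine and spermine are built. IL-4 is known to induce arginase 1 in mouse macrophages through STAT6, and IL-6 and IL-10 both signal through STAT3.

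Values are log2 intensities, and a difference of 1 is a doubling. A gene was tested where 3 or more arrays exceeded log2 6.99, the median over all values, and was called at a limma adjusted p under 0.05 over the 7154 genes tested. The tested members were Arg1, Arg2, Slc7a2, Odc1, Srm and Azin1 (6 of 8). Nos2 and Slc7a1 lay under that level on all 29 arrays. A gene with several probe sets is represented by that of highest mean level. Levels of different genes are not compared, because each probe set has its own response.

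The replicate numbers fall into 2 sets. IL-4, IL-6, IL-4+IL-6 and unstimulated arrays share the numbers 1 to 5, while the IL-10 and IL-4+IL-10 groups hold 3 arrays each and unstimulated arrays 6 to 8 have no counterpart with IL-4 or IL-6. These sets are inferred from the numbers and the values and are not stated in the labels. Comparisons of IL-10-treated with IL-4- or IL-6-treated arrays cross the sets. Comparisons with unstimulated, and both interactions, use the controls of both sets together. The interaction of IL-4 with IL-10 also takes its IL-4 arrays from the first set. Between the controls, 12.3% of tested genes were called higher and 6.82% lower in arrays 6 to 8. All 8 macrophage markers measured, among them Csf1r and Adgre1, lay above the filter level on all 29 arrays. With IL-4, 8 of 8 were called lower. With IL-4+IL-6, 7 were lower and 1 higher, and with IL-4+IL-10, 6 were lower. With IL-6 and with IL-10, 5 were higher and 1 lower. The shares of all tested genes called lower were 31.9% with IL-4, 23.1% with IL-6, 38.8% with IL-4+IL-6, 19.5% with IL-10 and 34% with IL-4+IL-10. The shares called higher were 27.6% with IL-4, 16.1% with IL-6, 18.3% with IL-10, 35% with IL-4+IL-6 and 38.1% with IL-4+IL-10. The mean log2 level of the macrophage markers was 12.58 to 12.73 in unstimulated arrays and 11.78 to 11.91 with IL-4. Of the neutrophil markers, 6 of 9 passed the filter and 5 were called lower with IL-4, 6 with IL-4+IL-6 and 5 with IL-4+IL-10, with a mean over the list of 8.17 to 8.54 unstimulated and 7.96 to 8.22 with IL-4. Of the dendritic cell markers, 3 of 6 passed the filter and all 3 were called higher with IL-4 (list mean 6.47 to 6.83 unstimulated, 7.50 to 7.76 with IL-4). Ccr7 passed on only 6 arrays, and only its means with IL-4 (7.14) and IL-4+IL-10 (7.29) exceed the filter level. Its call with IL-4 is therefore no support, since the filter favoured it. Flt3, Zbtb46 and Xcr1 exceeded the level on 0 arrays. The 3 tested dendritic cell markers were all called lower when IL-6 was added to IL-4 (31.2% of all tested genes). When IL-10 was added, 1 was called lower (24.6%). Of the B lineage markers, 4 of 7 passed the filter, and 3 were called lower with IL-10 and 4 with IL-4+IL-10 (list mean 6.24 to 7.53 unstimulated, 6.21 to 6.22 with IL-10). Of these, 3 were also called lower in unstimulated arrays 6 to 8 than in arrays 1 to 5 (6.82% of all tested genes), so the sets differ in them without IL-10. Siglecf, the 1 tested of 10 mast cell, basophil and eosinophil markers, was called higher with IL-4 (mean 7.99, against 7.02 unstimulated) and lower in every other stimulated group (5.57 to 6.29). It passed the filter on 9 arrays, and only its unstimulated and IL-4 means exceed the filter level. Of the erythroid and megakaryocyte markers, 2 of 5 passed the filter, Pf4 and Itga2b. With IL-4, 1 was called lower and 0 higher, with IL-6 1 was called higher, and with IL-10 2 were. Pf4 had means of 11.47 unstimulated, 10.52 with IL-4, 12.67 with IL-6 and 12.84 with IL-10. Itga2b had means of 7.51, 7.53, 7.61 and 7.82 in the same groups. No marker of T and NK cells or of fibroblasts passed the filter. The Actb probe sets from the 3′ and 5′ ends, a sign of RNA quality, differed by 0.318 in unstimulated arrays 1 to 5, 0.441 in arrays 6 to 8 and 0.248 with IL-6, on the log2 scale. The part of these values in the results below was not tested. In bulk RNA, a change in the share of cells of a type and a change in RNA per cell cannot be told apart.

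**Figure D1:**
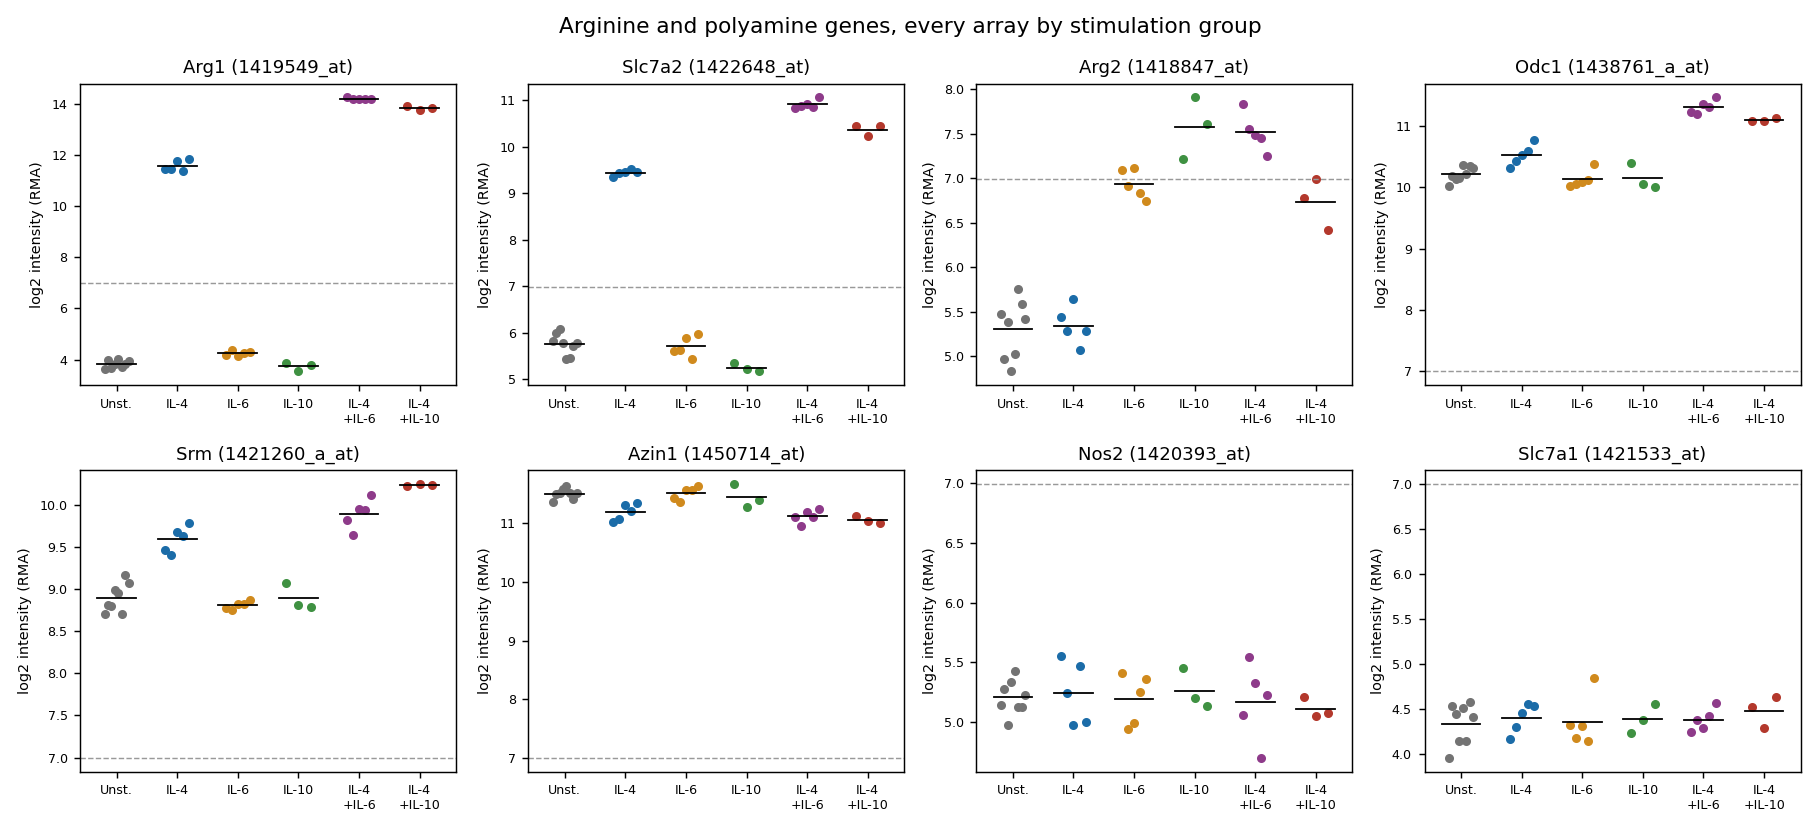
Log2 intensity (vertical axis) of the 8 listed genes with a probe set of their own, by stimulation group (horizontal axis). Each point is 1 array, black bars are group means and the dashed line is the filter level of 6.99. Arg1 and Slc7a2 lie above the line only on the 13 arrays with IL-4, and Nos2 and Slc7a1 lie below it on all 29.

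Odc1 is the only tested member whose promoter is in the RefSeq promoter table used here, and it is shown because Odc1 was called higher in every group that contained IL-4. The 250 bases before its start (GRCm38.p6, chr12:17544623-17544872, plus strand) are given in lower case, and capitals would mark a match to any of the 3 motifs described here.
Odc1 promoter: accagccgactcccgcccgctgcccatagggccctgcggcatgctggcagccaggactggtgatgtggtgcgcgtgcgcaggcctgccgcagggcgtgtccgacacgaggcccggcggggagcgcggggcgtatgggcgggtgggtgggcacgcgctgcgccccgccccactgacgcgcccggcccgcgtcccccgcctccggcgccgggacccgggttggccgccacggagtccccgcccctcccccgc
No letters are in capitals, since none of these motifs was found on either strand in this window. The motifs were a STAT6-type site (TTC and GAA separated by 4 bases), the E-box CACGTG and the ATF4-type TGATGNAA. Among 32851 promoter windows of the same length, 5.85% held the first, 6.02% the E-box and 3.45% the ATF4 type.

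Arg1 encodes the cytosolic arginase of alternatively activated macrophages. Its log2 level in the 8 unstimulated arrays ran from 3.63 to 4.04 with a median of 3.83. With IL-4 the arrays read 11.45, 11.45, 11.77, 11.39 and 11.86. With IL-6 they read 4.18, 4.36, 4.14, 4.28 and 4.31. All IL-4 arrays lay far above every unstimulated array, and the IL-6 arrays lay just above the highest of them. With IL-10 the arrays read 3.87, 3.54 and 3.79, of which the lowest lay just under the unstimulated range.

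Arg1 was higher still when a second cytokine accompanied IL-4. The IL-4+IL-6 arrays read 14.26, 14.18, 14.18, 14.21 and 14.20, and the IL-4+IL-10 arrays read 13.93, 13.75 and 13.86. Neither group overlapped IL-4 alone. The highest value of any probe set on any array is 15.13, so both combinations lie near the top of the scale.

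The Arg1 difference from unstimulated was 7.75 ± 0.0758 (SE, adjusted p = 1.56e-32) with IL-4, and 10.38 ± 0.0758 (adjusted p = 6.2e-36) with IL-4+IL-6. With IL-4+IL-10 it was 10.02 ± 0.09 (adjusted p = 1.63e-33). IL-6 alone raised Arg1 by 0.42 ± 0.0758 (adjusted p = 5.42e-05), with both means under the filter level. IL-10 alone gave -0.10 (95% interval -0.28 to 0.09, adjusted p = 0.419). Because the unstimulated mean of 3.83 lies under the filter level, the fold changes against it (216-fold for IL-4) depend on the low end of the scale. Both means were above that level when the combinations were set against IL-4: Arg1 was 6.17-fold higher with IL-4+IL-6 (log2 2.63, adjusted p = 3.17e-20) and 4.79-fold higher with IL-4+IL-10 (log2 2.26, adjusted p = 1.66e-16).

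Slc7a2 encodes the inducible cationic amino acid transporter CAT2, one route for arginine into the cell. Unstimulated arrays ran from 5.44 to 6.08 (median 5.78). With IL-4 the arrays read 9.34, 9.44, 9.46, 9.52 and 9.46, and with IL-4+IL-6 they read 10.84, 10.88, 10.92, 10.86 and 11.06. The IL-4+IL-10 arrays lay between these groups, at 10.44, 10.22 and 10.44, and no 2 of the 3 groups overlapped. With IL-6 alone the values (5.60, 5.63, 5.89, 5.43 and 5.98) overlapped unstimulated, and with IL-10 alone (5.35, 5.22 and 5.17) all 3 lay under the lowest unstimulated array.

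Slc7a2 rose by 3.68 ± 0.0906 (SE, adjusted p = 8.59e-23) with IL-4, by 5.15 with IL-4+IL-6 (adjusted p = 8.98e-27) and by 4.61 with IL-4+IL-10 (adjusted p = 1.62e-23). IL-10 alone lowered it by a difference of -0.51 (adjusted p = 0.000405), with both means under the filter level. The other probe sets gave -0.23 (adjusted p = 0.11) and -0.19 (adjusted p = 0.396) for that comparison, so the call rests on 1 of the 3. Against IL-4, Slc7a2 was 2.77-fold higher with IL-4+IL-6 (log2 1.47, adjusted p = 5.7e-13).

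For IL-10 added to IL-4 the Slc7a2 probe sets disagreed. Probe sets 1422648_at and 1426008_a_at gave 0.92 (adjusted p = 2.65e-07) and 0.87 (adjusted p = 1.44e-06), whereas 1450703_at gave -0.45 (adjusted p = 0.0367) in the fit of all 11139 probe sets above the filter. On 1450703_at the IL-4 arrays read 6.69, 6.46, 6.96, 6.28 and 6.55 and the IL-4+IL-10 arrays 6.19, 5.89 and 6.34, all under the filter level and overlapping. The IL-4+IL-6 arrays read 8.38, 7.94, 8.40, 7.96 and 8.35 there, above both. All 3 probe sets were called higher with IL-4, with IL-4+IL-6 and with IL-4+IL-10 against unstimulated.

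**Figure D2:**
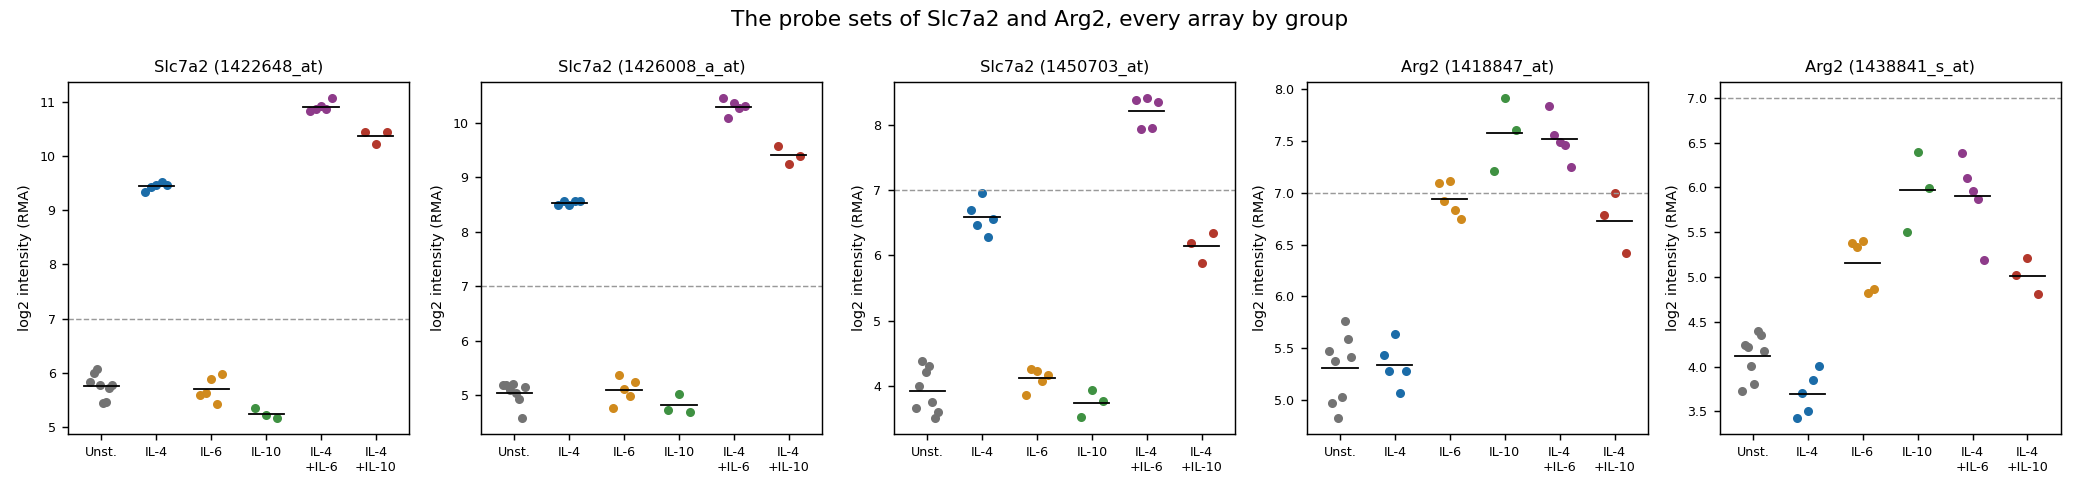
Log2 intensity of the 3 probe sets of Slc7a2 and the 2 of Arg2, by stimulation group, with 1 point per array, group means as black bars and the filter level of 6.99 dashed. On 1450703_at the IL-4+IL-10 mean (6.14) lies below the IL-4 mean (6.59), while on the other Slc7a2 probe sets it lies above.

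Slc7a1 encodes CAT1, the constitutive arginine transporter. Its group means ran from 4.33 unstimulated to 4.48 with IL-4+IL-10, and the groups overlapped. Nos2, the inducible nitric oxide synthase, had group means from 5.11 with IL-4+IL-10 to 5.26 with IL-10, again overlapping. With every gene fitted and none filtered out, neither gene was called in any of the 15 comparisons. A level under the filter does not show that a gene is not expressed.

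Arg2 encodes the mitochondrial arginase, and its pattern differed from that of Arg1. Unstimulated arrays ran from 4.83 to 5.76 (median 5.40), and the IL-4 arrays, at 5.44, 5.28, 5.64, 5.07 and 5.28, lay inside that range. With IL-6 the arrays read 7.09, 6.92, 7.12, 6.84 and 6.75, and with IL-10 they read 7.21, 7.91 and 7.61, all above every unstimulated array. The IL-4+IL-6 arrays were the higher of the combinations, at 7.83, 7.56, 7.49, 7.46 and 7.25. The IL-4+IL-10 arrays read 6.78, 6.99 and 6.42.

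Arg2 rose 3.11-fold with IL-6 (log2 1.64 ± 0.141 SE, adjusted p = 2.26e-10) and 4.83-fold with IL-10 (log2 2.27 ± 0.168, adjusted p = 1.32e-11). The unstimulated and IL-6 means both lie under the filter level, so these folds depend on the low end of the scale. Both folds use all 8 unstimulated arrays, where Arg2 was higher in arrays 6 to 8 than in arrays 1 to 5. That difference was 0.37 to 0.54 with 1 array left out, so the folds cannot be ranked from these values. IL-4 alone gave 0.04 (95% interval -0.25 to 0.33, adjusted p = 0.835). In the first set alone with the replicate number as a block, the IL-4 difference was 0.21 with an adjusted p of 0.0181, which passes the threshold. The second Arg2 probe set gave -0.42 for IL-4 (adjusted p = 0.0502), so the probe sets differ in sign here. On adding IL-4, Arg2 rose by 0.58 over IL-6 alone (adjusted p = 0.00204) and fell by 0.85 from IL-10 alone (adjusted p = 0.000725). These responses differed by -1.42 ± 0.256 (SE, adjusted p = 0.000312), a comparison added after the data had been seen. Each side of it stays within 1 set, but the sides lie in different sets, so partner and set cannot be told apart. That second probe set, under the filter level on all arrays, gave 0.74 and -0.95 for the same additions.

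Odc1 encodes ornithine decarboxylase, the first enzyme of polyamine synthesis. Unstimulated arrays ran from 10.02 to 10.36 (median 10.20). With IL-4 the arrays read 10.32, 10.43, 10.52, 10.59 and 10.77, of which the lowest overlapped unstimulated. With IL-4+IL-6 they read 11.23, 11.21, 11.37, 11.31 and 11.47, and with IL-4+IL-10 they read 11.09, 11.09 and 11.14, all above every IL-4 array. The means with IL-6 (10.13) and IL-10 (10.15) did not pass the test against unstimulated (10.22).

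Odc1 was 1.24-fold higher with IL-4 (log2 0.31, adjusted p = 0.000942), 2.14-fold with IL-4+IL-6 (log2 1.10, adjusted p = 2.66e-13) and 1.85-fold with IL-4+IL-10 (log2 0.89, adjusted p = 1.29e-09). Its 3 probe sets gave 0.30 to 0.34 with IL-4 and 1.10 to 1.13 with IL-4+IL-6.

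Srm encodes spermidine synthase. Unstimulated arrays ran from 8.70 to 9.16 (median 8.88). The IL-4 arrays read 9.47, 9.40, 9.68, 9.64 and 9.78, and the IL-4+IL-6 arrays read 9.82, 9.64, 9.96, 9.93 and 10.11. With IL-4+IL-10 the values were 10.22, 10.25 and 10.24, above every other array. IL-6 (mean 8.81) and IL-10 (mean 8.89) did not pass the test against unstimulated (8.90).

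Srm rose by 0.69 with IL-4 (adjusted p = 1.8e-08), by 0.99 with IL-4+IL-6 (adjusted p = 5.75e-12) and by 1.34 with IL-4+IL-10 (adjusted p = 7.4e-13). It was thus the member for which the IL-10 combination was called higher than the IL-6 combination, by 0.34 (adjusted p = 0.00779). That comparison crosses the sets, and with a term for the set it was 0.21 (adjusted p = 0.343).

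Azin1 encodes the antizyme inhibitor, which protects ornithine decarboxylase from degradation, and it moved the other way. Unstimulated arrays ran from 11.37 to 11.63 (median 11.52). The IL-4 arrays read 11.02, 11.07, 11.32, 11.21 and 11.35, the IL-4+IL-6 arrays 11.12, 10.95, 11.20, 11.11 and 11.25, and the IL-4+IL-10 arrays 11.13, 11.04 and 11.01. On this probe set, none of these 13 arrays reached the lowest unstimulated array. Azin1 fell by 0.31 with IL-4 (adjusted p = 0.000172), by 0.38 with IL-4+IL-6 (adjusted p = 7.81e-06) and by 0.45 with IL-4+IL-10 (adjusted p = 1.14e-05). Its second probe set gave -0.25, -0.21 and -0.30, all called. There the highest IL-4 array (10.52) and the highest IL-4+IL-6 array (10.52) lay above the lowest unstimulated array (10.51). With IL-6 and IL-10 the differences on the first probe set were 0.01 and -0.05, neither called.

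**Figure D3:**
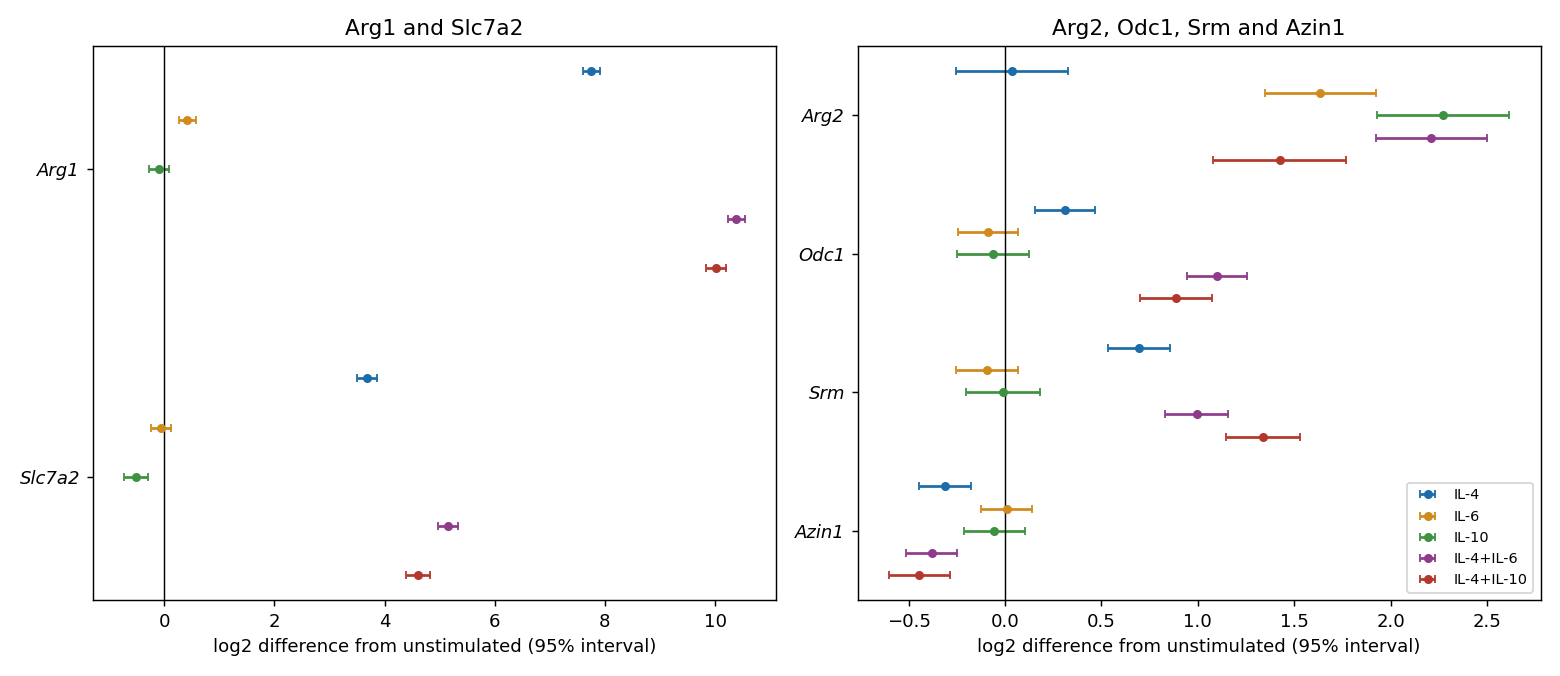
Log2 difference from unstimulated (horizontal axis) with its 95% interval for the 6 tested members, coloured by stimulation. Arg1 and Slc7a2 are drawn on a wider scale than the others. Arg2 is the member raised by IL-6 and IL-10 and near 0 (0.04) with IL-4.

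Against unstimulated, 4 of 6 tested members were called higher and 1 lower with IL-4, where 27.6% of all tested genes were called higher and 31.9% lower. With IL-6, 2 were higher and 0 lower (background 16.1% and 23.1%). With IL-10, 1 was higher and 1 lower (18.3% and 19.5%). The combinations each gave 5 higher and 1 lower, against 35% and 38.8% of all genes for IL-4+IL-6 and 38.1% and 34% for IL-4+IL-10. With so many genes called, a count of members alone separates the list little from the rest. Arg1 and Slc7a2 passed the filter only through their 13 arrays with IL-4. Arg2 passed it only through 10 arrays with IL-6, IL-10 or IL-4+IL-6, groups where it is high. These counts, and the member counts of the comparisons below, are therefore no support for the list.

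Setting the combinations against their single cytokines, 5 members were higher and 0 lower when IL-6 was added to IL-4 (29.4% and 31.2% of all genes), and 5 and 0 when IL-10 was added (32.7% and 24.6%). Adding IL-4 to IL-6 gave 5 higher and 1 lower (34% and 32.9%). Adding it to IL-10 gave 4 higher and 2 lower (31.8% and 28.1%), the second lower gene being Arg2 beside Azin1. The filter admitted Arg1 and Slc7a2 only through arrays with IL-4, so their calls here do not count for the list. Adding IL-6 raised Odc1 1.73-fold over IL-4 (adjusted p = 4.06e-09) and Srm 1.23-fold (adjusted p = 0.00427). Adding IL-10 raised them 1.49-fold (adjusted p = 1.52e-05) and 1.56-fold (adjusted p = 6.35e-06). Azin1 did not pass the test in either case (-0.07 and -0.13).

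The interaction sets the effect of a combination against the sum of its single-cytokine effects, and at 0 these effects add on the log2 scale. For Arg1 and Slc7a2, the unstimulated, IL-6 and IL-10 means lie under the filter level. For Arg2, the unstimulated, IL-4, IL-6 and IL-4+IL-10 means do. The interactions of these genes therefore depend on the low end of the scale. For IL-4 with IL-6, 5 members were above 0 and none below (21.4% and 18.6% of all genes): Arg1 by 2.20 ± 0.113 (SE, adjusted p = 6.41e-15), Slc7a2 by 1.52 (adjusted p = 5.42e-10), Odc1 by 0.88 (adjusted p = 4.43e-07), Srm by 0.39 (adjusted p = 0.00859) and Arg2 by 0.54 (adjusted p = 0.0429). The Arg2 call is fragile: it was 0.37 (adjusted p = 0.146) with a term for the set, and it was lost when any of 15 single arrays was left out. For IL-4 with IL-10, 4 members were above 0 and 1 below (15.5% and 10.1%). Arg1 gave 2.36 ± 0.132 (adjusted p = 3.67e-13), Slc7a2 1.44 (adjusted p = 1.26e-07), Srm 0.65 (adjusted p = 0.000837) and Odc1 0.64 (adjusted p = 0.000668), while Arg2 gave -0.89 (adjusted p = 0.00918). The Slc7a2 value rests on the probe set: 1426008_a_at gave 1.10 and 1450703_at gave -0.26 (adjusted p = 0.471).

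**Figure D4:**
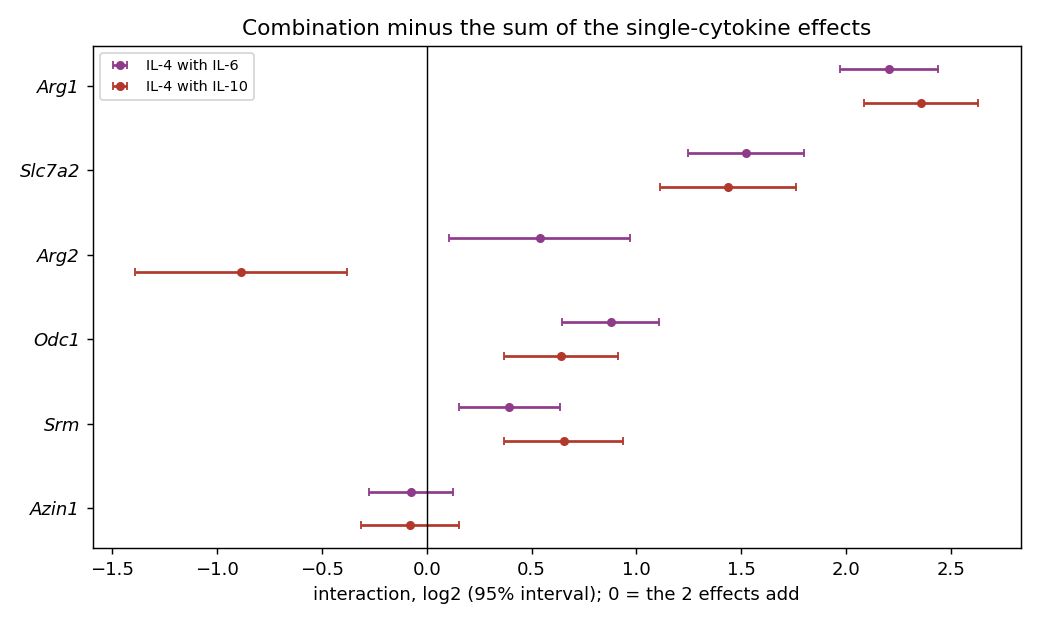
Interaction on the log2 scale with its 95% interval for the 6 tested members; 0 means that the effects of the single cytokines add. Arg1 lies at 2.20 (IL-4 with IL-6) and 2.36 (IL-4 with IL-10), and Arg2 lies on opposite sides of 0 (0.54 and -0.89). The values of Arg1, Slc7a2 and Arg2 rest in part on group means under the filter level.

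IL-10 and IL-6 differed less. Of the 6 members, 1 was called higher and 2 lower with IL-10 than with IL-6 (6.26% and 5.62% of all genes): Arg2 by 0.64 (adjusted p = 0.0264), Arg1 by -0.52 (adjusted p = 0.0031) and Slc7a2 by -0.46 (adjusted p = 0.0167). None of the 3 was called with a term for the set, where the values were 0.18, -0.51 and -0.29. Between the combinations, 1 member (Srm) was higher and 3 were lower with IL-10 (26.9% and 16%): Arg2 by -0.79 (adjusted p = 0.00108), Slc7a2 by -0.54 (adjusted p = 0.00055) and Arg1 by -0.36 (adjusted p = 0.00372). With the set term only Arg2 was called (-1.24, adjusted p = 0.000333). In the comparison of the 2 IL-4 responses, 0 members were higher and 1 lower (6.95% and 6.18%). Between the unstimulated arrays of the sets, Arg2 was called higher in arrays 6 to 8 (0.45, adjusted p = 0.0485) and no member lower (12.3% and 6.82%), a call lost without any 1 of 5 unstimulated arrays.

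Genes with the most similar profiles over the 29 arrays were named by Pearson's r, as a description of arrays that share groups and sets. For Arg1 they were Ddx4 (r = 0.996), Slc7a2 (0.995) and Plekhf1 (0.993). For Arg2 they were Nupr1 (0.967), Pmvk (0.958) and Il4ra (0.958), the IL-4 receptor alpha chain. Slc7a2 was followed by Ddx4 (0.993) and Hbegf (0.989) after Arg1. Odc1 lay nearest Slc39a6 (0.978), Uchl5 (0.969) and Mtx2 (0.965), Srm nearest Rrs1 (0.98), Mrps28 (0.979) and Aimp2 (0.979), and Azin1 nearest Calcrl (0.912), Cpd (0.904) and Lcp1 (0.90). Among members, Arg1 and Arg2 had r = 0.243, and Arg1 and Azin1 had r = -0.848.

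Other genes of arginine and ornithine metabolism were measured for 15 of 16 listed, and 8 were tested. With IL-4, 3 were called higher and 1 lower (median difference 0.02, against -0.01 over all tested genes, of which 27.6% were called higher and 31.9% lower). With IL-4+IL-6, 7 were higher and 0 lower (median 0.30; 35% and 38.8% of all tested genes), and with IL-4+IL-10, 8 were higher and 0 lower (median 0.36; 38.1% and 34%). Of the 8, 2 were also called higher in unstimulated arrays 6 to 8 than in 1 to 5 (12.3% of all tested genes). The part of the set in these calls was not tested. Prmt1 had means of 8.66 unstimulated, 9.81 with IL-10 and 10.22 with IL-4+IL-10, with an SE of 0.608 for IL-4+IL-10 against IL-4. Gatm, which makes guanidinoacetate from arginine on the way to creatine, rose by 2.14 with IL-4 (adjusted p = 9.4e-22), by 1.72 with IL-4+IL-6 and by 1.85 with IL-4+IL-10. Its interactions were below 0 (-0.66 with IL-6, -0.45 with IL-10), unlike those of Arg1. Oat, the ornithine aminotransferase, rose by 0.60 with IL-4+IL-6 (adjusted p = 6.55e-16).

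Of the other polyamine genes, 14 of 23 were measured and all 14 tested. With IL-4, 4 were higher and 5 lower (median -0.03), and with IL-4+IL-6, 5 were higher and 6 lower (median 0.00445). These shares lie near those of all tested genes, 27.6% and 31.9% with IL-4 and 35% and 38.8% with IL-4+IL-6. Smox, the spermine oxidase that turns spermine back to spermidine, fell by 0.80 with IL-4 (adjusted p = 2.02e-09), by 1.10 with IL-4+IL-6 and by 1.24 with IL-4+IL-10. Mri1, of the methionine salvage pathway that recycles a by-product of polyamine synthesis, rose by 0.45, 0.49 and 0.73. Dhps, the enzyme that uses spermidine to modify eIF5A, rose by 0.41 with IL-4+IL-6 (adjusted p = 3.85e-09) and by 0.52 with IL-4+IL-10. Atp13a2, a lysosomal polyamine exporter, fell by 0.77 with IL-4 (adjusted p = 1.15e-11).

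Of the proline synthesis genes, 4 of 8 were measured and 2 tested. Aldh18a1, which makes the proline precursor from glutamate, rose by 0.73 with IL-4 (adjusted p = 1.21e-07), by 1.36 with IL-4+IL-6 and by 1.32 with IL-4+IL-10. Among the other amino acid transporters, 7 of 11 were tested, with 1 higher and 3 lower with IL-4, and 3 higher and 2 lower with each combination, against the same shares of all tested genes as above. Slc7a7, a subunit of the transporter that exports cationic amino acids, fell by 1.05 with IL-4 (adjusted p = 3.61e-15) and rose by 0.86 with IL-6 and by 0.89 with IL-10. Its IL-4 mean (6.75) lies under the filter level. Slc7a5, the large neutral amino acid transporter LAT1, rose by 0.50 with IL-4 (adjusted p = 5.91e-05), by 1.13 with IL-4+IL-6 and by 0.79 with IL-4+IL-10. Its unstimulated mean lies under the filter level, so these differences depend on the low end of the scale.

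**Figure D5:**
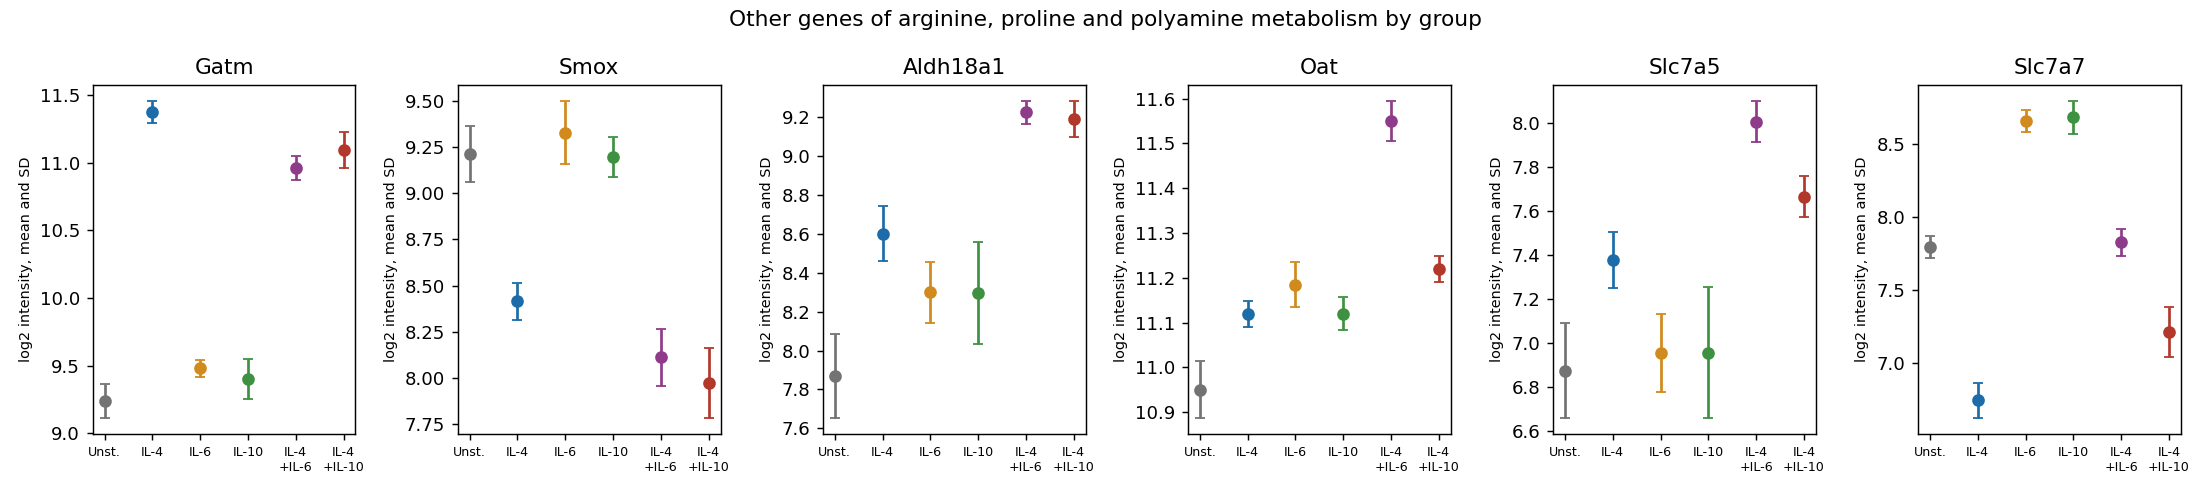
Group mean log2 intensity with its SD for 6 genes of arginine, proline and polyamine metabolism and transport. Gatm is highest with IL-4 alone (11.38), Smox is lowest with IL-4+IL-10 (7.97), and Aldh18a1 and Slc7a5 are highest with IL-4+IL-6 (9.23 and 8.01).

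The nitric oxide synthase cofactor tetrahydrobiopterin is made by genes of which 5 of 7 were tested. With IL-4, 2 were higher and 2 lower, beside 27.6% and 31.9% of all tested genes. Pts, a synthesis enzyme, fell by 0.40 (adjusted p = 1.53e-06), and Qdpr, which regenerates the cofactor, rose by 0.30 (adjusted p = 3.42e-11). Regulators of Arg1, Nos2 and Odc1 were tested for 23 of 28, with 9 higher and 9 lower with IL-4, 10 and 6 with IL-6, and 8 and 5 with IL-10. Over all tested genes the shares were 27.6% and 31.9%, 16.1% and 23.1%, and 18.3% and 19.5%. Il4ra rose by 2.91 with IL-6 (adjusted p = 1.16e-18) and by 3.16 with IL-10 (adjusted p = 1.14e-17). Klf4, a transcription factor induced by STAT6, rose by 2.31 with IL-4 (adjusted p = 4.69e-22), and Irf4 rose by 3.28 (adjusted p = 8.2e-16). The unstimulated mean of Irf4 lies under the filter level, so its rise depends on the low end of the scale. Irf4 was lower by 2.64 on the log2 scale when IL-6 was added to IL-4 (adjusted p = 8.07e-13) and by 1.27 when IL-10 was added, whereas Arg1 was higher in both cases.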

How the data were processed

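Per the submitters' processing notes, the authors summarised the arrays with RMA and deposited log2 intensities; RMA corrects background, normalizes by quantiles and gives 1 value per probe set. GCOS 1.4 is named there too; the annotation used and any detection calls are not given in the sources used here. Probe sets annotated to several genes (691) or none (1606) were not used. One linear model over the 29 arrays, with a mean per group, was fitted in limma 3.58.1 (R 4.3.3; two-sided moderated tests, Benjamini-Hochberg adjustment over 7154 of 12394 genes), checked on simulated data. The value tables carry no counts, and the number of arrays limits the precision. Within a set, same-numbered arrays deviated together (correlation 0.415 to 0.70 in 30 of 30 first-set pairs, 0.596 to 0.776 in 3 of 3 IL-10 pairs), so the numbers pair arrays there by the data, not by the labels; across sets the correlation ran from -0.685 to 0.518. All members are named in each comparison. From each pathway list and comparison, up to 3 called genes with the largest difference could be named, and the text gives a choice of these. For each member the 3 genes of highest r are named. A further promoter motif is not reported here. The members and lists were chosen with earlier results of these data known. Alternatives were other scalings, filters, probe set rules, thresholds, blocks and set terms, and leaving out each array.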

Additional observations from a re-analysis of the deposited data

Results flagged for a closer look

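Among 56 combinations of probe set and group, 3 had an array apart from the rest by Dixon's criterion, and chance marks about 1 group in 20. The IL-10 and IL-4+IL-10 groups, with 3 arrays each, were not examined. Odc1 with IL-6 read 10.38 in replicate 5, with the next array at 10.11. Slc7a1 with IL-6 read 4.84 in the same replicate, with the next at 4.32, both under the filter level. The Slc7a2 probe set 1426008_a_at read 4.58 in unstimulated replicate 7, with the next at 4.92.

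By a test of the difference, the response to IL-4 differed between IL-10 and IL-6 arrays for Arg2 (-1.42, IL-10 minus IL-6). It also did for 2 probe sets of Slc7a2, at -0.60 on 1426008_a_at and -1.69 on 1450703_at. These arrays lie in different sets, so partner and set cannot be told apart. The Slc7a2 probe set used for the gene gave -0.09 (adjusted p = 0.796).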

How the results depend on the processing

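Of 777 recomputed values of the 62 called member differences (other settings, no array left out), 754 kept their direction and their side of the threshold, 21 lost the call and 2 changed direction. Both changes were probe set 1450703_at of Slc7a2: IL-4+IL-10 against IL-4 gave -0.45 and the interaction of IL-4 with IL-10 gave -0.26. With 1 array left out, 707 of 733 kept both and 26 lost the call. The replicate block within the set gave Arg2 a call with IL-4 (0.21) and changed no other call. The planned replicate block over all arrays lost the Arg2 interaction of IL-4 with IL-6 (0.37). That block joins the IL-10 and IL-4+IL-10 arrays with first-set arrays of the same number. Such pairs did not deviate together (median correlation -0.331, range -0.685 to 0.518). The block over all arrays is therefore no check of differences that involve IL-10. In all, 9 values of differences not called in the report gained a call. Beside Arg2 with IL-4 these were Odc1 for IL-4+IL-10 against IL-4+IL-6 (-0.24 with the mean of probe sets, -0.21 with only the groups compared, -0.27 on 1427364_a_at), Slc7a2 between the IL-4 responses (-0.79 with the mean of probe sets, -0.60 on 1426008_a_at, -1.69 on 1450703_at) and Slc7a2 between the unstimulated sets (-0.31 with the mean of probe sets, -0.49 on 1450703_at). The cause of these changes was not tested.

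The number of members called fell to 1 for IL-6 and for IL-10 against unstimulated, both with the 75th percentile filter and with the mean of probe sets. It fell to 0 for the comparison of the IL-4 responses with that filter. Arg2, whose highest array read 7.91, lay under the 75th percentile level of 9.16 on every array. Arg2 was thus not tested with that filter, also between the unstimulated sets, so the falls there are not lost calls. With the mean of probe sets, the filter was applied to the averaged values, so a fall can likewise come from a gene not tested. For IL-10 against IL-6 the number of members called was 0 with a term for the set and 1 at a threshold of 0.01. For IL-4+IL-10 against IL-4+IL-6 it was 1 with the set term. Between the unstimulated sets it was 0 with no filter, with the 75th percentile filter, with only the groups compared and at 0.01. With 1 array left out the counts ran from 0 to 1 between the unstimulated sets and from 1 to 3 for IL-10 against IL-6. The Arg2 call between sets was lost without unstimulated 2, 4, 5, 6 or 7 (0.37 to 0.45). For IL-10 against IL-6, Arg2 was lost without IL-6 4 (0.61) or 5 (0.59) or IL-10 2 (0.47) or 3 (0.62), and Slc7a2 without IL-10 2 (-0.45) or 3 (-0.42). The Arg2 interaction was lost without unstimulated 1, 3, 6, 7 or 8, IL-4 2, 4 or 5, IL-6 2, 4 or 5, or IL-4+IL-6 1, 2, 3 or 4 (0.46 to 0.55).

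The other 23 sign changes were of differences near 0 that were called neither in the report nor under the alternative. Azin1 with IL-6 was -0.0002 with quantile normalization, -0.0075 with the mean of probe sets, -0.007 with the replicate block, the set term, 1 set only and the block within the set, and -0.0231 on probe set 1422702_at. That probe set gave Azin1 0.0365 for IL-4+IL-6 against IL-4, 0.0596 for the interaction with IL-6 and 0.0552 for that with IL-10. Srm with IL-10 was 0.0014 with quantile normalization and 0.0051 with median centring. It was 0.105 with the replicate block over all arrays, which joins arrays across the sets. Arg1 between unstimulated sets was 0.0261 with quantile normalization and 0.0029 with median centring. Odc1 with IL-10 was 0.0571 with the replicate block over all arrays, to which the same limit applies. For IL-10 against IL-6, Odc1 was -0.002 with the mean of probe sets, -0.10 with the set term and -0.0648 on 1427364_a_at. Srm against IL-6 was -0.0469 with the set term. Slc7a2 with IL-6 was 0.0631 with the mean of probe sets, 0.0533 on 1426008_a_at and 0.19 on 1450703_at.

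Leaving out 1 array also turned the sign of such uncalled differences: Azin1 with IL-6 (-0.0222 to 0.0442), with IL-10 (-0.165 to 0.0278), between IL-10 and IL-6 (-0.173 to 0.0196), in the interaction with IL-10 (-0.161 to 0.0318) and between the IL-4 responses (-0.0838 to 0.109). The same held for Odc1 with IL-10 (-0.188 to 0.0118) and against IL-6 (-0.10 to 0.10), Srm with IL-10 (-0.103 to 0.0409) and against IL-6 (-0.009 to 0.13), Arg2 with IL-4 (-0.0371 to 0.105), Slc7a2 with IL-6 (-0.121 to 0.0146), and Arg1 with IL-10 (-0.17 to 0) and between unstimulated sets (-0.0587 to 0.05). Low signal limits Nos2, Slc7a1 and the baseline of Arg1, Arg2 and Slc7a2.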
